A study of Homo sapiens with 4 samples.

Results

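The metallothioneins are small, cysteine-rich proteins that bind zinc and copper and take up toxic metals such as cadmium. In humans their genes lie side by side on chromosome 16, and many of them are switched on when free zinc binds MTF1, a zinc finger transcription factor that attaches to metal response elements in their promoters. Glucocorticoids and oxidative stress also raise several of them. In papillary thyroid cancer, MT1G is known as a gene whose promoter can be methylated.

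The genes described here were chosen by name, as members of the family and its regulator. They were the metallothionein genes MT2A, MT1E, MT1F, MT1X, MT1G, MT1M and MT1L and the regulator MTF1, 8 genes in all. Of these, 5 were listed among the 13165 genes of the deposited table, namely MT2A, MT1X, MT1L, MT1E and MTF1. MT1F, MT1G and MT1M were not listed, and no source used here says what decided which genes the table lists, so their level is unknown.

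RNA was sequenced from TPC1, an established papillary thyroid cancer cell line grown in DMEM with 10% FBS, in 2 groups of 2 libraries. The TPC1-Vector cells carried the empty pQCXIP vector. The TPC1-C1orf106 cells carried the same retroviral vector with full-length C1orf106, the older symbol of INAVA. All cells of both groups had been selected with puromycin at 0.5 μg/mL for 2 weeks, so each group is a separately selected stable line, and the line and the overexpressed gene cannot be told apart. The values are in FPKM (the fragments of a gene per kilobase of its transcript, relative to all fragments mapped), with 1 value per gene and group. The authors had merged the 2 libraries of each group, so the values have no SD, no test between the groups could be made, and the number of reads behind a value is unknown.

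C1orf106 was at 7.96 FPKM in TPC1-Vector and at 123 FPKM in TPC1-C1orf106. Of the markers of thyroid follicular cells, PAX8 was listed at 60.1 and 55.7 FPKM and FOXE1 at 5.26 and 5.89 FPKM, whereas NKX2-1, TG, TSHR and SLC5A5 were not listed. Of 4 epithelial markers, KRT8 and KRT18 were listed and KRT19 and EPCAM were not. The keratin KRT8 was at 23.4 FPKM in TPC1-Vector and at 10.5 FPKM in TPC1-C1orf106, and KRT18 at 140 and 212 FPKM. No endothelial marker of 3 was listed. The leukocyte list held only CD68 of 3, at 5.76 and 8.67 FPKM, and 3 of 4 fibroblast markers were listed with a summed level of 3.56 FPKM in TPC1-Vector and of 2.19 FPKM in TPC1-C1orf106. The part of these differences in the results below was not tested.

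The listed metallothioneins are close copies of each other, so their coding sequences are shown first. They were read from the transcripts of GENCODE release 29. Capitals mark the bases that differ from MT1E, the gene with the largest fold difference between the groups, and for the pseudogene MT1L the stretch that matches the coding sequence of MT1E without gaps is given.

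MT1E: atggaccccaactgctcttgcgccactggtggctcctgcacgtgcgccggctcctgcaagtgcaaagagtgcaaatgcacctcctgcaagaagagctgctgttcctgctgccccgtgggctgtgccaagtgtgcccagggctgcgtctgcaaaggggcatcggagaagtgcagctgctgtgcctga

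MT1L: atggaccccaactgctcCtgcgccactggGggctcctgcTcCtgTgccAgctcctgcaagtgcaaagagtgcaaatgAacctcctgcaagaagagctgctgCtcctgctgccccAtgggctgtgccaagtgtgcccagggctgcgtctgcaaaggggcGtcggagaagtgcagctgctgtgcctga

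MT1X: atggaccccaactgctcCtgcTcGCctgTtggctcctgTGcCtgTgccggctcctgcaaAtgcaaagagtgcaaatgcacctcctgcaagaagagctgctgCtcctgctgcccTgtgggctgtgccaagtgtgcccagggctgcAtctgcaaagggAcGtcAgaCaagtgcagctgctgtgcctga

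MT2A: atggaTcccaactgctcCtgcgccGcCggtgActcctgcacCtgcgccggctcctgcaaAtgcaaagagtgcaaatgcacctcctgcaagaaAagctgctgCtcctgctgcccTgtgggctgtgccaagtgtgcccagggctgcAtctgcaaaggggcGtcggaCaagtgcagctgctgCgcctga

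Each sequence was 186 nucleotides long, and in MT1E, MT1X and MT2A the stop codon was codon 62. Of the codons before it, 20 coded for cysteine in each of these 3 genes. MT1L differed from MT1E at 10 of the 186 bases (94.6% identity), fewer than MT2A with 14 (92.5%) and MT1X with 17 (90.9%). With positions counted from 1 at the A of the start codon, the substitution C78A from MT1E to MT1L turned codon 26 into a stop codon. The reading frame of MT1L thus ends there in the reference, and the annotation calls it a transcribed pseudogene.

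How far reads could be confused between these copies was looked at on whole transcripts. The longest exact stretch shared by the first annotated transcripts of MT1E and MT1L was 43 bases, and that shared by MT1X and MT2A was 63 bases. Of the 25-base words in the MT1E transcripts, 19.8% also occurred in transcripts of other genes, and 2.98% occurred in MT1L. Of the 50-base words, 7.10% occurred in other genes, and 0% in each of MT1L, MT1X and MT2A. For MT1L, 22.7% of the 25-base words and 4.42% of the 50-base words were found in other genes. MT1X shared 20.3% of its 25-base words and 18.3% of its 50-base words with other genes, the highest share at 50 bases of the 4 listed copies. Most of these 50-base words were shared with genes outside the listed copies, since 0.964% occurred in MT2A and 0% in MT1L or MT1E. MT2A shared 8.66% of its 25-base words and 3.02% of its 50-base words with other genes. Most of the sequence of each copy was therefore its own at 50 bases. The paper states that paired ends were sequenced on an Illumina HiSeq X platform. However, the read length and the treatment of reads with several positions are not given in the sources used here. The assignment of reads between these copies therefore remains uncertain.

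The promoters of MT2A and MT1X are shown because these are the most highly expressed coding members and the metal response elements that MTF1 recognises lie there. RefSeq entries were matched by symbol for 3 of the 8 genes, MT2A, MT1X and MTF1. The 250 bases before the RefSeq start are given 5′ to 3′, with matches to the core of the element in capitals. The core was searched as TGCACNC and as TGCGCNC on both strands.

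MT2A (GRCh38.p14, chr16:56608334-56608583, forward strand): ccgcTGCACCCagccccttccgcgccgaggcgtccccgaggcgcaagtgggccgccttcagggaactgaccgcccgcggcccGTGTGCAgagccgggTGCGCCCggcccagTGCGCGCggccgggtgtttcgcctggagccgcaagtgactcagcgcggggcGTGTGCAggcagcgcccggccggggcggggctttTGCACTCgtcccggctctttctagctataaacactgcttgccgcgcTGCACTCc

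MT1X (GRCh38.p14, chr16:56682220-56682469, forward strand): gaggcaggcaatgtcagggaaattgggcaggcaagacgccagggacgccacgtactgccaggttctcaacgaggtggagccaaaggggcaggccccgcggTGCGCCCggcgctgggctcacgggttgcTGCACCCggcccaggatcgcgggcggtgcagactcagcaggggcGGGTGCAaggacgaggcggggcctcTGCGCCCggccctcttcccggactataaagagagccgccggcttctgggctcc

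The MT2A promoter held 7 matches, 5 on the forward and 2 on the reverse strand, and the MT1X promoter held 4, of which 3 were forward. The matches did not overlap each other. Among the 35116 promoters of the same length, 24.8% held at least 1 match, 0.37% at least 4 and 0.0313% at least 7. The promoter of SLC30A1, the zinc exporter that MTF1 also controls, held 1 match and that of MTF1 itself held 0. A match says only that these letters are present.

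**Figure D1:**
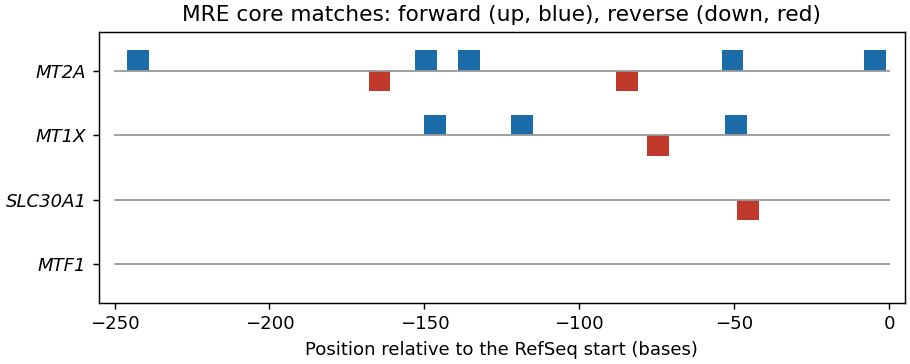
Positions of matches to the core of the metal response element in the 250 bases before the RefSeq start of 4 genes, with the distance from the start in bases on the horizontal axis. Blue boxes above a line are forward matches and red boxes below it are reverse matches, 7 in MT2A, 4 in MT1X, 1 in SLC30A1 and 0 in MTF1.

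MT2A, a metallothionein made by most human cell types, was by far the most abundant member, and it differed little between the groups. It was at 1926 FPKM in TPC1-Vector and at 2060 FPKM in TPC1-C1orf106, a ratio of 1.07 and a difference of 0.10 on the log2(FPKM + 0.5) scale. Adding 0.5 keeps very low values from giving extreme ratios and understates the change of weak genes. Among the 13165 listed genes the level of MT2A ranked 14 in TPC1-Vector and 10 in TPC1-C1orf106, among the most abundant transcripts of the cells. In bulk RNA, a lower value can come from fewer cells with the transcript or from less transcript per cell, and these cannot be told apart.

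MT1X, another coding member of the cluster, was at 49.0 FPKM in TPC1-Vector and at 57.2 FPKM in TPC1-C1orf106, a log2 difference of 0.22. MT1L was at 54.5 FPKM in TPC1-Vector and at 42.3 FPKM in TPC1-C1orf106, a log2 difference of -0.36. These transcripts were thus at like levels, and their order was exchanged between the groups, since MT1X was at 0.90 times the level of MT1L in TPC1-Vector and at 1.35 times in TPC1-C1orf106. Without a spread between libraries, it cannot be said whether this exchange exceeds the replicate error, and both values rest on the uncertain assignment of reads between the copies.

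MT1E had the largest fold difference of the members. It was at 3.83 FPKM in TPC1-Vector and at 0.448 FPKM in TPC1-C1orf106, 8.57-fold lower as deposited and 4.57-fold lower with 0.5 added to each value (log2 difference -2.19). Its value in TPC1-C1orf106 lay under 1 FPKM, and the counting error of so low a value on a short transcript is unknown. Of the 12305 genes whose mean over the groups reached 0.5 FPKM, MT1E had rank 3 from the lowest log2 difference. The entries below it were the small nucleolar RNAs SNORA57 and SNORA74A, both listed at 0 in TPC1-C1orf106. In TPC1-Vector, SNORA74A was listed at 11.5 FPKM and SNORA57 at 1.57e+06 FPKM, a value too high to be read as a level. Of the genes kept with a value above 0 in both groups, MT1E had the lowest log2 difference.

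MTF1, the regulator on chromosome 1 (37809566 to 37859620, GRCh38), was weakly expressed and nearly level. It was at 4.72 FPKM in TPC1-Vector and at 4.47 FPKM in TPC1-C1orf106, a log2 difference of -0.07. MT2A was at 408 times the level of MTF1 in TPC1-Vector and at 461 times in TPC1-C1orf106. The order of the levels was MT2A, MT1L, MT1X, MTF1 and MT1E in TPC1-Vector, and MT2A, MT1X, MT1L, MTF1 and MT1E in TPC1-C1orf106.

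**Figure D2:**
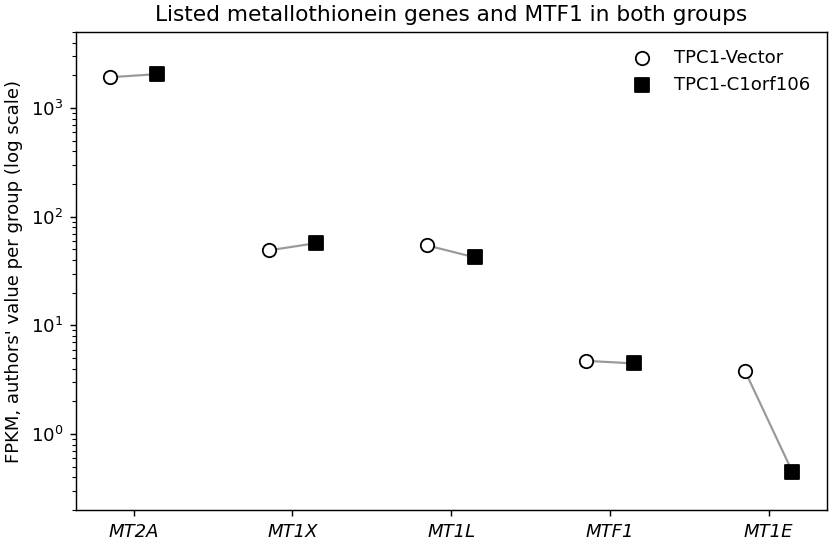
FPKM of the 5 listed genes on a log scale, with open circles for TPC1-Vector and filled squares for TPC1-C1orf106, each the authors' single value for the group without an error. MT2A lies at 1926 and 2060 FPKM, MT1X and MT1L lie close together, and only MT1E shows a long connecting line, from 3.83 to 0.448 FPKM.

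A difference of at least 1.5-fold on the log2(FPKM + 0.5) scale (0.58 in log2) was used to describe the members beside all genes. Of the 5 listed members, 0 were at least 1.5-fold higher and 1, MT1E, was at least 1.5-fold lower in TPC1-C1orf106. Over the 12305 genes kept, 2.24% were at least 1.5-fold higher and 1.45% at least 1.5-fold lower. Among the 2838 genes at a mean of 1 to 5 FPKM, the range in which MT1E lies, 3.95% were higher and 2.29% lower by that much. With 5 listed members, 1 gene past the limit is a statement about MT1E and not about the family. The median log2 difference of the 5 members was -0.07, beside 0.0033 over all genes kept, and their range ran from -2.19 to 0.22. This median is the value of MTF1. Without MTF1, the median of the 4 listed metallothioneins was -0.13, and that of the 3 coding ones was 0.10.

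**Figure D3:**
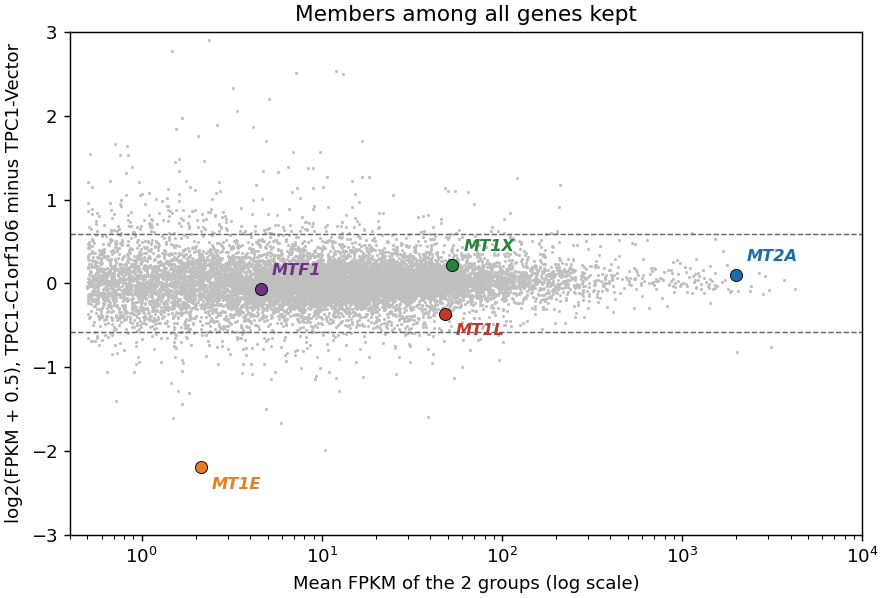
Each grey point is a gene whose mean reached 0.5 FPKM, with the mean of the groups on a log scale against the log2(FPKM + 0.5) difference, TPC1-C1orf106 minus TPC1-Vector, and dashed lines at 1.5-fold. MT2A, MT1X, MT1L and MTF1 lie between the dashed lines and MT1E at -2.19 lies below them, and 6 genes beyond a log2 difference of 3 in either direction are outside the plot.

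Summed over the 4 listed metallothioneins, the level was 2033 FPKM in TPC1-Vector against 2159 FPKM in TPC1-C1orf106, a ratio of 1.06. MT2A made up 94.7% of the sum in TPC1-Vector and 95.4% in TPC1-C1orf106, so the sum follows MT2A. Without MT2A the sum was 107 and 99.9 FPKM. MT1E and MT1L, its closest copy in coding sequence among the 4 listed, lie next to each other and were both lower in TPC1-C1orf106. Their summed level was 58.3 FPKM in TPC1-Vector against 42.7 FPKM in TPC1-C1orf106, a log2 difference of -0.44. Since FPKM divides by a length that differs between the copies, this sum still depends on how reads were split between them. MT1L was at 14.2 times the level of MT1E in TPC1-Vector and at 94.4 times in TPC1-C1orf106.

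By the deposited positions, which are on GRCh38, MT2A (chromosome 16, 56608565 to 56609497), MT1L (56617460 to 56618818), MT1E (56625672 to 56627113) and MT1X (56682469 to 56684196) span 75.6 kb. All 4 lie on the forward strand, have 3 exons in their first annotated transcript and overlap the GENCODE gene of the same name. None of them overlapped another listed gene. Within 500 kb of this span, 9 other genes were listed, and 0 of them differed by 1.5-fold. Over all genes kept, 2.24% were higher and 1.45% lower by that much, so 0 of 9 is near the share of all genes. Their log2 differences ran from -0.24 to 0.11, and 8 of the 9 were below 0. The median was -0.09, beside 0.0033 over all genes kept, and this small shift was not tested. The neighbours farthest from 0 were NLRC5, a regulator of MHC class I genes, at 2.50 FPKM in TPC1-Vector and at 2.04 FPKM in TPC1-C1orf106, and HERPUD1, a gene of the endoplasmic reticulum stress response, at 38.9 and 34.6 FPKM. The log2 difference of MT1E was therefore farther from 0 than that of every listed gene around it. Of the 9 neighbours, however, only NLRC5 had a mean of 1 to 5 FPKM, as MT1E had. In that range 3.95% of genes were higher and 2.29% lower by 1.5-fold, more than over all genes kept. The part of expression level in this contrast was not tested.

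**Figure D4:**
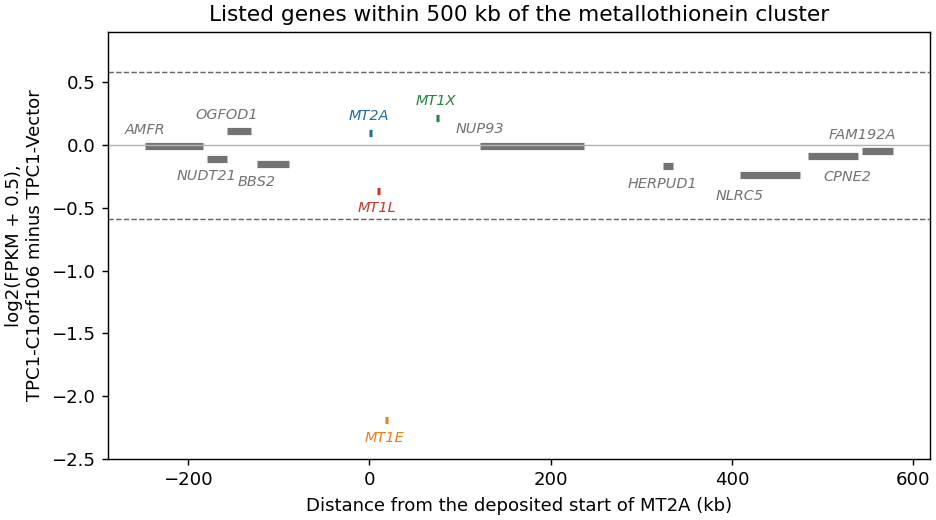
Listed genes within 500 kb of the metallothionein cluster, as bars from start to end in kb from the deposited start of MT2A, at the height of their log2(FPKM + 0.5) difference, TPC1-C1orf106 minus TPC1-Vector. The 9 neighbours in grey lie between -0.24 and 0.11, and of the coloured metallothioneins only MT1E lies beyond the dashed lines at 1.5-fold.

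Lists of genes that handle metals or share inducers with the metallothioneins were described in the same way. Of 10 zinc exporters of the SLC30 family, 6 were listed, and 0 differed by 1.5-fold, with a median log2 difference of -0.02. SLC30A1, which carries zinc out of the cell and is itself an MTF1 target, was at 30.8 FPKM in TPC1-Vector and at 27.5 FPKM in TPC1-C1orf106. SLC30A9 was at 29.6 and 25.7 FPKM. Of 14 zinc importers of the SLC39 family, 11 were listed, again with 0 past 1.5-fold and a median of 0.02. The most abundant were SLC39A1 at 93.1 and 95.6 FPKM, whose position overlaps that of JTB and CREB3L4, and SLC39A14 at 70.8 and 61.1 FPKM.

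All 6 other MTF1 targets were listed, with 1 at least 1.5-fold higher, 0 lower and a median log2 difference of -0.03. The gene that passed the limit was SEPW1, which encodes selenoprotein W, at 15.3 FPKM in TPC1-Vector and at 26.0 FPKM in TPC1-C1orf106 (log2 difference 0.75). C11orf31, which encodes selenoprotein H and whose position overlaps CTNND1 and TMX2, was at 19.1 and 23.6 FPKM. The list thus held 3 genes above and 3 below 0.

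All 13 copper handling genes were listed, 0 differed by 1.5-fold and the median was 0.09. SOD1, the copper and zinc superoxide dismutase, was at 370 FPKM in TPC1-Vector and at 327 FPKM in TPC1-C1orf106, and the copper chaperone ATOX1 was at 68.2 and 86.9 FPKM. Of 10 heat shock and metal stress genes, 9 were listed, 0 differed by 1.5-fold and the median was also 0.09. The constitutive chaperone HSPA8 was at 1935 and 1818 FPKM, and HSP90AA1 at 1464 and 1910 FPKM.

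Of 10 glucocorticoid response genes, 9 were listed and 8 passed the filter on the mean. Of these 8, 2 were at least 1.5-fold higher, 0 lower, and the median log2 difference was 0.04. DUSP1, a phosphatase that acts on MAP kinases, was at 10.4 FPKM in TPC1-Vector and at 26.0 FPKM in TPC1-C1orf106 (log2 difference 1.27). SGK1, a kinase induced by serum and glucocorticoids, was at 2.33 and 4.76 FPKM (0.90). Against these, CEBPD was at 56.7 and 47.7 FPKM and ANGPTL4, whose position overlaps RAB11B, at 21.8 and 17.6 FPKM, with values below 0. Each gene counted once, 3 of 51 genes of these lists (5.88%) were at least 1.5-fold higher, beside 2.24% of all genes, and 0 were lower, beside 1.45%.

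**Figure D5:**
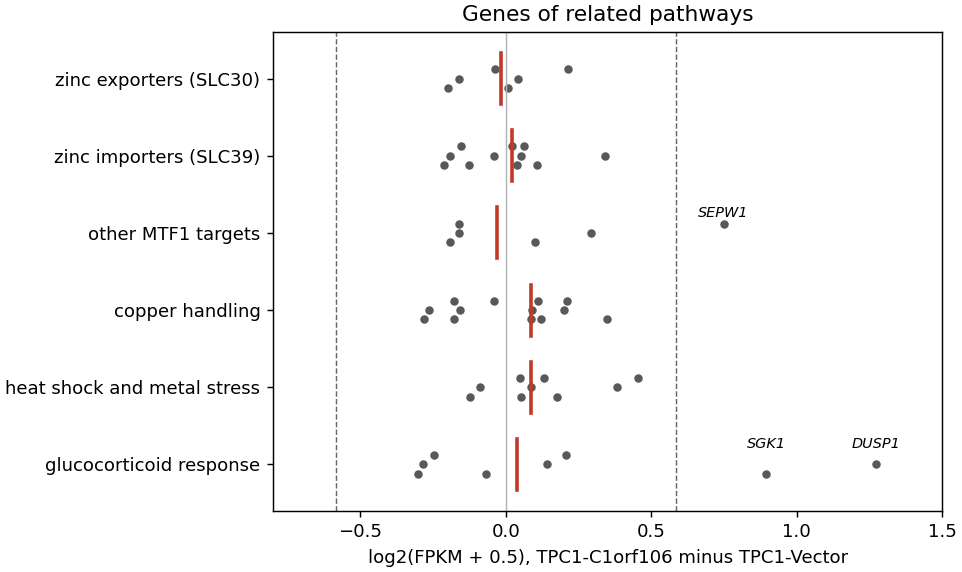
Log2(FPKM + 0.5) difference, TPC1-C1orf106 minus TPC1-Vector, of each gene kept in 6 lists, with a red line at the median of a list and dashed lines at 1.5-fold. SEPW1, SGK1 and DUSP1 lie beyond the right dashed line, and the other genes lie between the lines.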

How the data were processed

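According to the paper, the libraries were prepared with a kit for mRNA sequencing. Each group was sequenced in duplicate. The authors deposited 1 FPKM value per gene and group. The submitters' processing notes name CASAVA, Cufflinks 2.1.1, Cuffdiff and the build hg38. The aligner and the annotation are not given in the sources used here. The log2 ratio, p-value and q-value of the deposited table are the authors' own comparison and were not used. FPKM divides by transcript length, and for transcripts as short as those of metallothioneins (411 to 786 nucleotides in the first annotated transcript of those listed) the level depends on the fragment length assumed.

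From the FPKM values, differences of log2(FPKM + 0.5) were computed for the 12305 genes whose mean reached 0.5 FPKM. No test was possible with 1 value per group. Genes at least 1.5-fold apart were counted, as a description. The genes named are the members, C1orf106, the cell type markers, from each other list the genes past 1.5-fold and those with the 2 highest means, and the 2 neighbours farthest from 0. SNORA57 and SNORA74A were named after their values were seen. The members and lists were chosen with earlier results of these data known. Alternatives were pseudocounts of 0.1 and 1, no filter, a minimum mean of 1 FPKM, 2 scalings, a fold of 2 and a minimum mean of 10 FPKM. The ratio with nothing added and the genes at a mean of 1 to 5 FPKM were chosen after seeing the data. The effect of counting error on weak genes such as MT1E was not tested. Python 3.11.15, numpy 2.4.6, pandas 2.3.3, matplotlib 3.10.9 and biopython 1.88 were used.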

Additional observations from a re-analysis of the deposited data

How the results depend on the processing

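No paired analysis was possible because only 1 value was deposited for each group, and for the same reason no library could be left out. MT2A, MT1X, MT1L, MT1E and MTF1 kept the sign of their difference and their side of the 1.5-fold limit in all settings run for them. These were pseudocounts of 0.1 and 1, no pseudocount, median-of-ratios scaling, quantile normalization, no filter and a minimum mean of 1 FPKM. A pseudocount cannot change a sign, and a filter on the mean leaves the value of a gene unchanged. The sign could therefore have differed only under the 2 scalings. The log2 difference ranged from -3.10 to -1.74 for MT1E, -0.40 to -0.36 for MT1L, 0.19 to 0.22 for MT1X, 0.09 to 0.24 for MT2A and -0.08 to -0.06 for MTF1. The fold of MT1E was thus 8.57 with nothing added and 3.34 with 1 added, because the pseudocount itself shrinks the change of weak genes. With a fold of 2 as the limit, 1 gene of the pathway lists (DUSP1) was higher in place of 3. At a mean of at least 10 FPKM, 1.09% of genes were 1.5-fold higher and 0.908% lower, less than over all genes kept. Since the depth is unknown, no counting error can be given for MT1E.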
